A study of Mus musculus with 11 samples.

Results

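Genes with large differences between Mettl3 knockout (KO) and wild-type (WT) mouse embryonic stem cells (ESCs) were singled out and followed through every library of an RNA-seq series. They are 10 of the 39179 gene identifiers in the deposited table, namely Parm1, Cadps2, Tmem266, Plcl2, Tshz1, Epdr1, Platr3, Islr2, Ndrg2 and Crtac1. The first 6 of these were higher in KO ESCs and the last 4 were lower. They were chosen by their differences in normalized counts between KO and WT ESCs, and all 3 ESC libraries of each genotype entered that choice, so the ESC differences below are a description and carry no test. Values in embryoid bodies (EBs) did not enter that choice, and the KO effect there was tested. The genes were chosen with earlier results of these data known, so the EB tests may not be fully independent of the choice.

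The KO cells are labelled as Mettl3 knockouts and the WT cells have the gene, and the labels give the strain C57BL/6 for both. KO ESCs and WT ESCs had 3 libraries each, lettered A, B and C, from cells held in serum-free medium with LIF and inhibitors of GSK3 and MEK, which keeps them in the naive state. KO EBs and WT EBs had 2 libraries each, lettered A and B. Embryoid bodies are clumps of differentiating cells, here grown from ESCs without attachment in serum for 8 to 21 days. Per the labels the letters are biological replicates, and the C pair of ESCs went with a protein assay (SILAC). How many KO clones were used, and which part of Mettl3 was removed, is not given in the sources used here.

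Mettl3 is the catalytic subunit of the nuclear complex that writes N6-methyladenosine (m6A) onto messenger RNA, mostly at adenosines within short consensus sequences such as GGACT and often near stop codons and in 3' untranslated regions. In ESCs the mark is best known for speeding the decay of the transcripts that carry it. The 10 genes do not form a pathway. Parm1 and Tmem266 encode membrane proteins, Cadps2 and Epdr1 a secretion factor and a secreted protein, Plcl2 an inositol phosphate-binding signalling protein and Tshz1 a zinc finger transcription factor. Platr3 is a long noncoding RNA, Islr2 encodes a neuronal receptor-like membrane protein, Ndrg2 a cytoplasmic protein of the N-myc downstream-regulated family and Crtac1 a secreted matrix protein.

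Whole-library measures set the limits of these values. Reads assigned to genes numbered 3026837 to 3075007 in the replicate C ESC libraries and 8523027 to 15426894 in the other 8, so 3 reads were worth 8.33 to 9.88 normalized counts in replicate C and 1.63 to 2.72 elsewhere. Mettl3 had 138, 133 and 131 normalized counts in KO ESCs, against 422, 392 and 425 in WT ESCs, and 154 and 147 in KO EBs, against 399 and 368 in WT EBs. All 10 naive pluripotency markers had reads in every group, and their summed level was 41605 to 49726 in KO ESCs and 34116 to 68054 in WT ESCs, and 27038 and 30815 in KO EBs and 17334 and 19365 in WT EBs. The summed level of 7 fibroblast markers was 178 in replicate C of KO ESCs and 11082 and 11365 in the other KO ESC libraries, and 217 in replicate C of WT ESCs and 6548 and 6690 in the other WT ESC libraries. All 7 had reads in each of these groups. The summed level of 7 endoderm markers was 266 and 269 in KO EBs, with Afp at 0, and 42726 and 42869 in WT EBs, where every one had reads. Of 5 trophectoderm markers, summed levels were 511 to 1214 in KO ESCs and 166 to 231 in WT ESCs, and 496 and 510 in KO EBs, with Cdx2 at 0, and 7342 and 7763 in WT EBs.

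Sequences are shown for the 4 genes with the largest KO differences in EBs in the limma fit over all 10 libraries, which are Cadps2, Platr3, Islr2 and Epdr1. The motif searched was GGACT on the sense strand of the longest protein-coding transcript, or of the longest transcript for Platr3, in the GENCODE annotation of GRCm38. Cadps2 held 4 matches and Islr2 held 4, while Epdr1 and Platr3 held 0. Of 15589 tested genes with a transcript, 12% had no match. The Platr3 transcript has only 412 bases, and 2.66% of tested genes have shorter exons, so its count of 0 says little. Each match is printed with 10 bases on either side and the motif in capitals.
Cadps2 match 1: ggaagtgcaaGGACTgaaatctgtg
Cadps2 match 2: agaacagtcaGGACTcggacctaaa
Cadps2 match 3: agaaggcggaGGACTtcagggcatt
Cadps2 match 4: gtgtaattctGGACTtcaaagagtt
Islr2 match 1: ggtcccagaaGGACTgccagccaac
Islr2 match 2: agggacggcaGGACTttaacaccct
Islr2 match 3: caccctcgcgGGACTccgccctacc
Islr2 match 4: agtggcgaggGGACTcgggtggggt
The first 3 matches of Cadps2 are in coding sequence and the last is in the 3' untranslated region, on the minus strand of chr6 at chr6:23583428-23583452, chr6:23496809-23496833, chr6:23263579-23263603 and chr6:23262985-23263009. The first match of Islr2 is in coding sequence and the other 3 are in the 3' untranslated region, on the minus strand of chr9 at chr9:58199820-58199844, chr9:58197662-58197686, chr9:58197643-58197667 and chr9:58196484-58196508. A match is a run of letters and was not measured here as a methylated site.

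Over the 10 genes there were 38 matches. Density was highest in Crtac1, at 1.53 per kb, and was 1.43 in Plcl2 and in Ndrg2, 1.41 in Tshz1 and 1.38 in Parm1. It was 0.93 per kb in Islr2, 0.805 in Cadps2 and 0.453 in Tmem266. The median of the tested genes was 1.03 per kb, so 5 of the 10 genes lay above it and 5 at or below it. The group higher in KO ESCs and the group lower in KO ESCs each included genes with none and genes above the median.

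Start-site windows from RefSeq (GRCm38.p6), from 250 bases before to 50 bases after a start, were found for 7 of the 10 genes. Tmem266, Plcl2 and Tshz1 had no entry. They are printed for the same 4 genes, with each CG dinucleotide in capitals, because their KO differences run in opposite directions and their windows differ widely in CG content.
Cadps2 start-site window: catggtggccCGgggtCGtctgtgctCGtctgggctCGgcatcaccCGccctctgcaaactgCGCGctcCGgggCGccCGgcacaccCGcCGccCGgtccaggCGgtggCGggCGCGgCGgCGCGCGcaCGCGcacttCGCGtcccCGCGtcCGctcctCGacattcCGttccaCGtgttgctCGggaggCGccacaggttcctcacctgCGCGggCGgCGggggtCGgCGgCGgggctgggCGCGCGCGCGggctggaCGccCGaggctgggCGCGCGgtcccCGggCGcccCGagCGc
Epdr1 start-site window: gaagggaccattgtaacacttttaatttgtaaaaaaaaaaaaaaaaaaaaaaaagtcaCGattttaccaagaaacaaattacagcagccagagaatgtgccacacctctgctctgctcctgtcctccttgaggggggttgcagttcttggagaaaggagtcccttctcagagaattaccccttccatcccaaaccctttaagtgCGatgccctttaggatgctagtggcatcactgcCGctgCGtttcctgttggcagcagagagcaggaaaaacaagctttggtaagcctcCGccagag
Platr3 start-site window: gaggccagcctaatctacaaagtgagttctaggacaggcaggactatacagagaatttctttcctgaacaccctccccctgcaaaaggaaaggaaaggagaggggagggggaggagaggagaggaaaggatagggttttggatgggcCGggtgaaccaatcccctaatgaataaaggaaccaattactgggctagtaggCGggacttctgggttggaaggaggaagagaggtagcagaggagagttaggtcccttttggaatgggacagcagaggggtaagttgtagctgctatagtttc
Islr2 start-site window: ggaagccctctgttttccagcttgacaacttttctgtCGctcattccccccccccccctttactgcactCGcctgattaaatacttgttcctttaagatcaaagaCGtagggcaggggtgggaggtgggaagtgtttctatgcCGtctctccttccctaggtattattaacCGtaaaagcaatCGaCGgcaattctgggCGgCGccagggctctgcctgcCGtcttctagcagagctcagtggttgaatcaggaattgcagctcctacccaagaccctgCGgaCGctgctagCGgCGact
The window of Cadps2 lies at chr6:23839372-23839671 on the minus strand and holds 54 CG dinucleotides, more than 99.7% of the 32851 windows in the table. Epdr1's window, at chr13:19619781-19620080 on the minus strand, holds 5. Platr3 has 2 in its window at chr2:135646273-135646572 on the plus strand, which lies before the start of the GENCODE model. The first of 3 Islr2 windows, at chr9:58204270-58204569 on the minus strand, holds 14. The median window held 7, with quartiles of 3 and 20. Over all 12 windows found, those of the genes higher in KO ESCs held 5 to 54 CG dinucleotides and those of the genes lower in KO ESCs held 2 to 41, the highest in Crtac1.

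**Figure D1:**
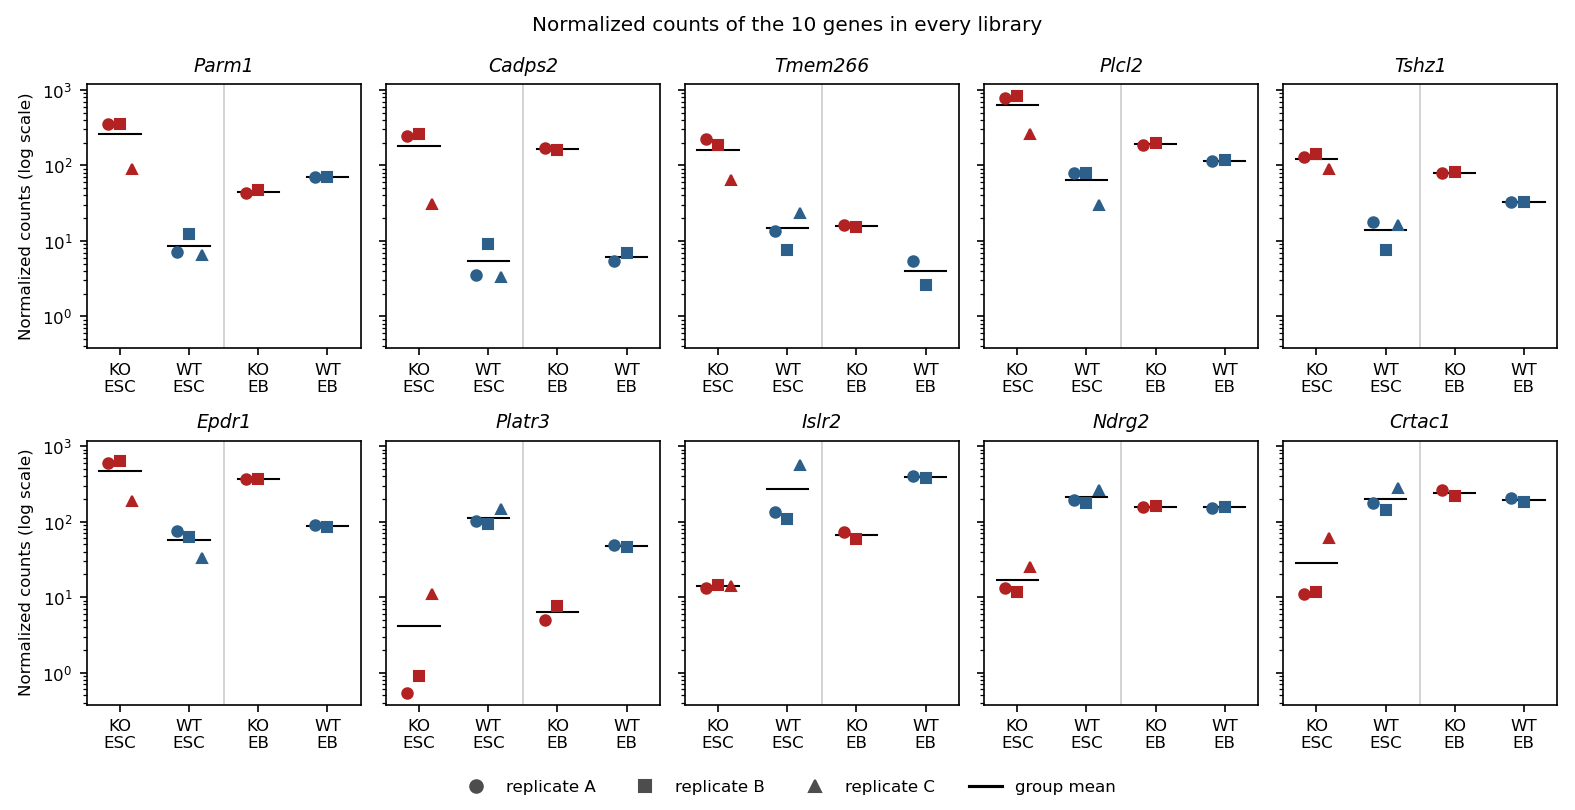
Normalized counts (log scale) of the 10 genes in KO ESCs, WT ESCs, KO EBs and WT EBs, with circles, squares and triangles for replicates A, B and C and a line at the group mean. KO and WT ESCs are apart in all 10 panels, while in EBs Ndrg2 overlaps and Parm1 lies lower in KO.

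Of the membrane and secretory genes higher in KO ESCs, Cadps2 had a difference of like size in EBs, Epdr1 a smaller one, Tmem266 a smaller one at low levels, and Parm1 one in the other direction. Cadps2 encodes a calcium-dependent activator that primes dense-core vesicles for release (ENSMUSG00000017978, chr6:23262773-23839421, minus strand). It had 247.6, 258.8 and 30.6 normalized counts in KO ESC replicates A, B and C, against 3.58, 9.16 and 3.29 in WT ESCs. KO EBs had 170.2 and 160.5, against 5.36 and 6.89 in WT EBs. Every KO library was above every WT library of either cell type. WT ESCs held 18 reads in all and WT EBs 15, so the gene was close to the detection limit without the knockout.

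On the log2(normalized count + 1) scale, which understates changes of low genes, the KO minus WT difference of Cadps2 was 4.44 over the 3 ESC pairs. It was 5.22 for replicates A and B and 2.88 for replicate C, where 11 KO reads stood against 1 WT read, a ratio of 9.28 with an exact binomial 95% interval of 1.35 to 399 for counting error only. In EBs the difference was 4.55 with a standard error (SE) of 1.02. Its adjusted p was 0.0762 in limma over all 10 libraries with Benjamini-Hochberg adjustment over 15781 genes, so it did not pass 0.05. With the replicate letter as a block the adjusted p was 0.014. It was 1.19e-05 without the replicate C ESC libraries and 1.29e-05 with the 4 EB libraries alone.

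Epdr1 encodes an ependymin-related glycoprotein of the secretory and lysosomal route (ENSMUSG00000002808, chr13:19591706-19619927, minus strand). KO ESCs had 589.3, 632.1 and 186.1 normalized counts, against 75.1, 63.4 and 32.9 in WT ESCs. KO EBs had 372.2 and 362.5, against 91.2 and 86.1 in WT EBs. Replicate C was the lowest library of both ESC genotypes, and the genotypes did not overlap in either cell type. The ESC difference was 2.91, with 3.13 for replicates A and B and 2.46 for C. In EBs it was 2.04 (SE 0.62), with an adjusted p of 0.176 in limma and 0.00647 with the replicate block. This gene was the most abundant of the 6 per length, at 171 normalized counts per kb of exon in KO ESCs and 20.8 in WT ESCs, and at 134 in KO EBs and 32.3 in WT EBs.

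Tmem266 encodes a membrane protein with a voltage-sensor domain (ENSMUSG00000032313, chr9:55326913-55438345, plus strand). It had 225.8, 186.2 and 63.9 normalized counts in KO ESCs, against 13.6, 7.63 and 23.1 in WT ESCs. KO EBs had 16.2 and 15.3, against 5.36 and 2.58 in WT EBs. Replicate C was lowest among KO ESCs and highest among WT ESCs, so the difference was 4.20 for A and B and 1.43 for C. In EBs it was 1.81 (SE 0.75), resting on 41 reads in KO EBs and 10 in WT EBs. Its adjusted p was 0.34 in limma and 0.16 with the block, and 0.00962 with the EB libraries alone.

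Parm1 encodes a mucin-like membrane protein first described in the prostate (ENSMUSG00000034981, chr5:91517615-91626894, plus strand). KO ESCs had 352.6, 349.6 and 88.9 normalized counts, against 7.15, 12.2 and 6.59 in WT ESCs. KO EBs had 43.1 and 46.7, against 70.5 and 70.6 in WT EBs. The KO library order was therefore turned round, with both KO EB libraries below both WT EB libraries. The ESC difference was 4.58, with 5.08 for replicates A and B and 3.57 for C, where 32 KO reads stood against 2 WT reads (ratio 13.5, exact binomial 95% interval 3.44 to 116).

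In EBs the Parm1 difference was -0.64 (SE 0.69), with an adjusted p of 0.886 in limma and 0.372 with the block. Leaving out the replicate C libraries gave 0.0372, and the EB libraries alone gave 0.0187. Between cell types, EBs minus ESCs was -2.28 in KO and 2.94 in WT, as a description only because the ESC libraries chose the gene. WT cells thus had more Parm1 in EBs than in ESCs and KO cells had less.

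Plcl2 encodes a phospholipase C-like protein that lacks catalytic activity and binds inositol phosphates (ENSMUSG00000038910, chr17:50509403-50688484, plus strand). It had 792.8, 818.2 and 263.9 normalized counts in KO ESCs, against 79.4, 80.2 and 29.6 in WT ESCs. KO EBs had 187.9 and 200.4, against 112.6 and 117.9 in WT EBs. Replicate C was the lowest library in both ESC genotypes, and the KO minus WT difference was close in the pairs, at 3.32 for A and B and 3.11 for C. The KO over WT ratio was 9.98, 10.2 and 8.90 in ESC pairs A, B and C, and 1.67 and 1.70 in EB pairs A and B. In EBs the log2 difference was 0.75 (SE 0.65), with an adjusted p of 0.796 in limma and 0.0179 with the block, under which its SE was 0.13.

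Tshz1 encodes a teashirt-family zinc finger transcription factor (ENSMUSG00000046982, chr18:84011627-84087706, minus strand). KO ESCs had 129.5, 140.8 and 88.9 normalized counts, against 17.9, 7.63 and 16.5 in WT ESCs. KO EBs had 79.1 and 81.5, against 32.9 and 32.7 in WT EBs. The KO libraries were above the WT libraries in both cell types, and WT EBs lay above WT ESCs. The ESC difference was 3.06, with 3.41 for A and B and 2.36 for C. In EBs it was 1.26 (SE 0.47), with an adjusted p of 0.276 in limma and 0.0997 with the block, and 0.00113 with the EB libraries alone.

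Among the 4 genes lower in KO ESCs, Platr3 and Islr2 were also lower in KO EBs, while Ndrg2 and Crtac1 were at WT levels or slightly above. Platr3 is one of a set of pluripotency-associated transcripts, noncoding RNAs named for their ESC expression, and its model is 412 bases long (ENSMUSG00000084762, chr2:135648907-135652063, plus strand). It had 0.544, 0.908 and 11.1 normalized counts in KO ESCs, which are 1, 1 and 4 reads. WT ESCs had 102.3, 92.4 and 144.9. KO EBs had 4.94 and 7.64, against 49.0 and 46.5 in WT EBs, so every KO library lay below every WT library of either cell type.

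The KO over WT ratio of Platr3 was 0.00532 in ESC pair A (exact binomial 95% interval 0.000134 to 0.0301), 0.00983 in B (0.000247 to 0.0558) and 0.0766 in C (0.02 to 0.211). On the log2 scale the ESC difference was -5.09, against -3.17 with a pseudocount of 10. In EBs it was -2.77 (SE 0.95), with an adjusted p of 0.232 in limma and 0.0408 with the block. Per length, Platr3 was the most abundant of the 10 in WT ESCs, at 275 normalized counts per kb of exon, where 85.2% of tested genes were lower. In KO ESCs it was at 10.2.

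Islr2 encodes a membrane protein with leucine-rich repeats and an immunoglobulin domain that acts in axon guidance and binds neurotrophin receptors (ENSMUSG00000051243, chr9:58196297-58204319, minus strand). KO ESCs had 13.1, 14.5 and 13.9 normalized counts, against 135.9, 109.2 and 563.3 in WT ESCs. KO EBs had 73.5 and 59.4, against 400.7 and 377.9 in WT EBs. KO ESCs were near each other, and WT replicate C stood far above A and B, so the difference was -3.05 for A and B and -5.24 for C. This was the only one of the 10 whose C difference exceeded that of A and B in size. In EBs the difference was -2.54 (SE 0.70), with an adjusted p of 0.133 in limma and 0.0393 with the block. Its exons share 181 bases with those of Islr on the same strand, which is 3.06% of their length.

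Crtac1 encodes a secreted matrix protein, known in the nervous system as a blocker of the Nogo receptor (ENSMUSG00000042401, chr19:42283035-42431783, minus strand). It had 10.9, 11.8 and 61.1 normalized counts in KO ESCs, against 178.8, 142.7 and 283.3 in WT ESCs. KO EBs had 261.3 and 219.1, against 206.1 and 181.6 in WT EBs. KO was below WT in all ESC libraries and above it in all EB libraries. The ESC difference was -3.20, with -3.70 for A and B and -2.19 for C. In EBs it was 0.30 (SE 0.77), with an adjusted p of 1 in limma, 0.651 with the block and 0.104 with the EB libraries alone. An antisense gene overlaps 7.75% of its exons, and the library kit does not keep the strand, so reads of the pair cannot be told apart there.

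Ndrg2 belongs to the N-myc downstream-regulated family and is best known as an astrocyte protein (ENSMUSG00000004558, chr14:51905271-51914158, minus strand). It had 13.1, 11.8 and 25 normalized counts in KO ESCs, against 191.7, 177.8 and 260.2 in WT ESCs. KO EBs had 156.1 and 158.8, against 153.2 and 158.4 in WT EBs. KO and WT were far apart in ESCs and overlapped in EBs. The KO over WT ratio in EBs was 1.02 in pair A (95% interval 0.837 to 1.24) and 1.00 in pair B (0.813 to 1.24), for counting error only. EBs minus ESCs was 3.24 in KO and -0.41 in WT, so the KO cells reached WT levels in EBs while WT levels were similar in both cell types. In EBs the KO minus WT difference was 0.01 (SE 0.40, adjusted p = 1 in limma).

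KO and WT ESC libraries did not overlap in any of the 10 genes, where 18% of all tested genes did not overlap, and nothing is read from this because those libraries chose the genes.

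**Figure D2:**
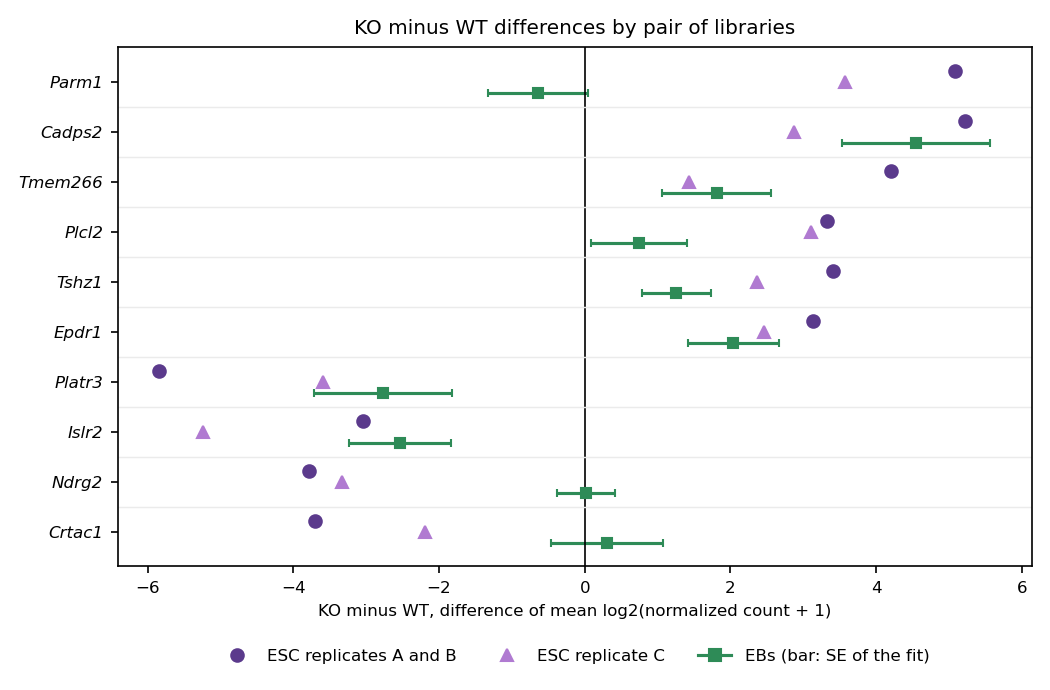
KO minus WT differences of mean log2(normalized count + 1) for each gene, in ESC replicates A and B, in ESC replicate C and in EBs, where the bar is the SE of the limma fit over all 10 libraries. Replicate C keeps the direction of A and B in 10 of 10 genes, and the EB value is near 0 or opposite in Parm1, Ndrg2 and Crtac1.

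The C pair, measured with the protein assay, had the direction of the A and B pairs in 10 of 10 genes, and the counting interval of its KO over WT ratio left out 1 in all 10. Its difference was smaller in size in 9 of 10. Those libraries also chose the genes, which favours a shared direction and intervals that leave out 1. These counts are therefore a description, and nothing is read from them. The shift of replicate C was larger in size in the KO libraries than in the WT libraries for every gene but Islr2. Replicate C minus the mean of A and B was -3.01 for Cadps2, -1.97 for Parm1 and -1.71 for Epdr1 in KO ESCs, against -0.67, -0.45 and -1.04 in WT ESCs. It was 2.82 for Platr3 and 2.33 for Crtac1 in KO ESCs, against 0.57 and 0.82 in WT ESCs. Islr2 had 0.01 in KO ESCs and 2.20 in WT ESCs. The fibroblast marker levels and the read depth given above moved with replicate C in the same libraries, and their part in these shifts was not tested.

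All 10 genes passed the filter of a mean of 10 or more normalized counts. Tested over all 10 libraries, 0 of the 10 genes passed an adjusted p of 0.05 in EBs, where 1.84% of all tested genes did, 0.469% higher and 1.37% lower in KO EBs. At an unadjusted p under 0.05 there were 6 of 10, where 13.9% of all tested genes were, while edgeR also called 0 where it called 1.78% of genes, and DESeq2 called 5 where it called 9.82%. The spread in the limma fit over all 10 libraries includes that between replicate C and the other ESC libraries. The SE of the 10 EB differences was 0.40 to 1.02 over all libraries and 0.10 to 0.35 without replicate C. The lack of calls over all libraries therefore does not show that EB differences are absent. In ESCs, same-lettered KO and WT libraries deviated together (r = 0.845, 0.828 and 0.858 across genes), but A with B did nearly as much (0.809 and 0.812). Replicate C was thus set apart in both genotypes, while pairing within A and B was not shown. For the shared shift of C, a fit with the letter as a block, EB letters included, is given beside the first. It called 5 of 10, namely Cadps2, Plcl2, Epdr1, Platr3 and Islr2, 3 higher and 2 lower, each in its ESC direction, where 22.7% of tested genes were called, 9.27% higher and 13.4% lower in KO EBs. The fit without the replicate C libraries called 8 of 10 where 51.9% of genes were called, and the EB libraries alone called 8 of 10 where 49.2% were.

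Neither of these last fits called Ndrg2 or Crtac1, and 7 of the 8 calls in each had the ESC direction. Parm1 was the exception, lower in KO EBs. Leaving out replicate C of KO ESCs alone gave 3 calls, of Cadps2 (adjusted p = 0.00481), Epdr1 (0.026) and Platr3 (0.012), where 7.36% of all tested genes were called. Leaving out that of WT ESCs alone gave 1, of Islr2 (0.00414), where 6.32% were, both in limma. KO and WT EBs did not overlap in 9 of 10 genes, against 74.9% of all tested genes. The naive pluripotency, endoderm and trophectoderm marker levels given above differ between the same KO and WT EBs. Of 7 neural markers, with Dcx at 0 in every group, summed levels were 716 and 896 in KO EBs and 557 and 643 in WT EBs. In ESCs they were 588 to 1208 in KO and 930 to 1611 in WT. Those of 2 epithelial markers were 2894 and 2975 in KO EBs and 2697 and 2717 in WT EBs. Summed levels of the 7 fibroblast markers were 1998 and 2030 in KO EBs and 3009 and 3038 in WT EBs. The part of these markers in the EB values was not tested. In bulk RNA, fewer cells that express a gene and less of its RNA per cell cannot be told apart.

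**Figure D3:**
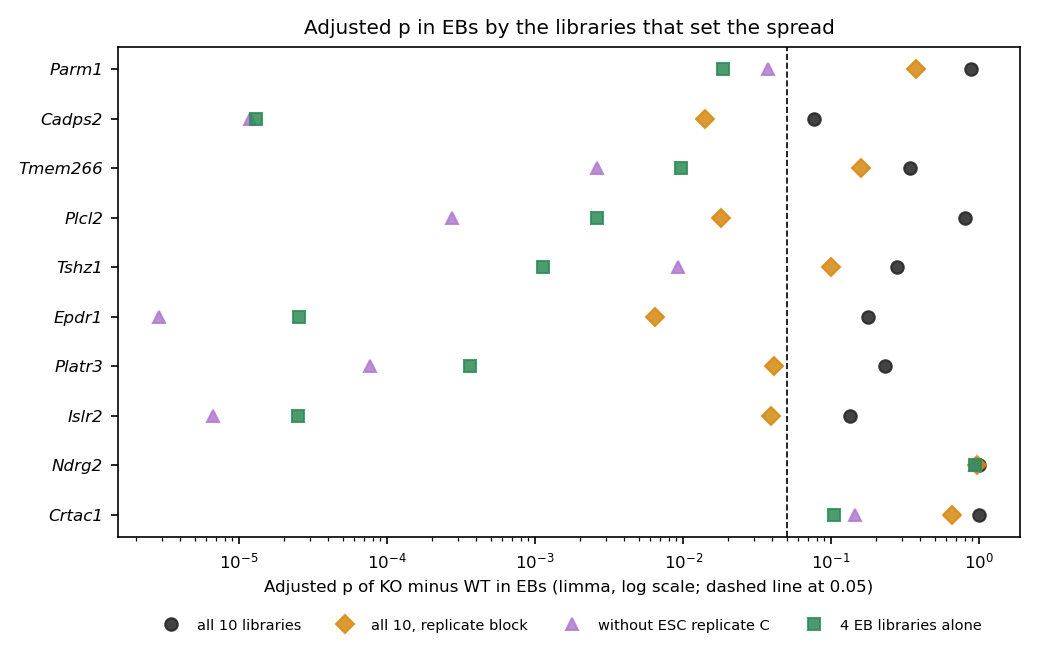
Adjusted p (log axis) of the KO minus WT difference in EBs for each gene in 4 limma fits that differ in the libraries or terms that set the spread, with a dashed line at 0.05. No gene lies left of the line with all 10 libraries, 5 do with the replicate block and 8 do with either fit that leaves out ESC replicate C.

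Persistence was set against other genes as strongly changed in KO ESCs. There were 49 other tested genes with an ESC difference at or above the 2.91 of Epdr1, and 60 with one at least as large in the lower direction, so the 10 genes are some, not all, of the most changed. The 6 higher genes had a median difference of 3.26 in ESCs and 1.54 in EBs, and 5 of 6 kept their sign. The 49 others had medians of 3.34 and 1.53, and 39, or 79.6%, kept their sign. The 4 lower genes had medians of -3.71 and -1.26, and 2 of 4 kept their sign, while the 60 others had -3.27 and -1.79, and 55, or 91.7%, kept theirs. Over all 15781 tested genes, 66% had the same sign in both cell types. These counts describe the genes side by side, and the choice of the 10 was not random.

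**Figure D4:**
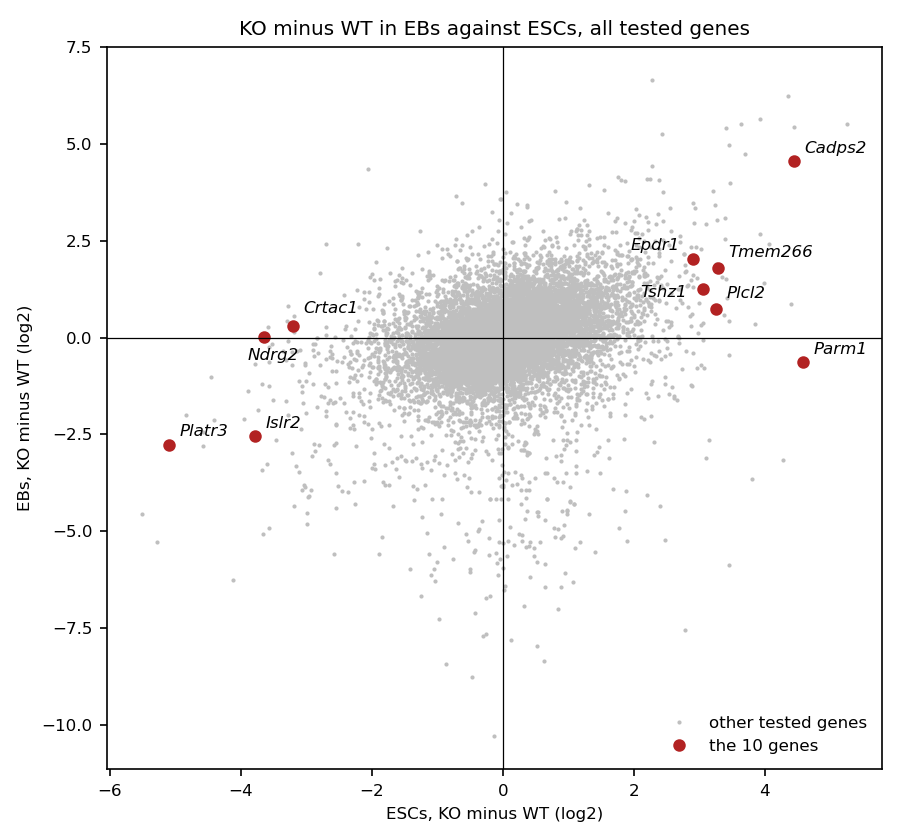
KO minus WT differences on the log2(normalized count + 1) scale in EBs (vertical) against ESCs (horizontal) for all 15781 tested genes, with the 10 genes as large points. Cadps2, with 4.44 in ESCs and 4.55 in EBs, lies among genes high in both, while Parm1, Plcl2, Ndrg2 and Crtac1 lie far from 0 in ESCs and within 1 of it in EBs.

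In size, the EB difference was below the ESC difference in 9 of 10 genes. Because the genes were chosen for large ESC differences, smaller ones elsewhere are likely in advance, and nothing is read from this count. Cadps2 had 4.44 in ESCs and 4.55 in EBs on this scale, but 4.98 and 4.76 in edgeR and 5.22 and 4.55 without replicate C. Between cell types, as a description, EBs minus ESCs had opposite signs in KO and WT for 6 genes. The choice of genes far apart in ESCs favours this, so nothing is read from the count. Plcl2 had -1.51 in KO and 0.99 in WT, Tshz1 -0.54 in KO and 1.25 in WT, and Epdr1 -0.16 in KO and 0.70 in WT. Platr3 had 1.12 in KO and -1.20 in WT. Parm1 and Ndrg2, given above, also ran opposite ways. Crtac1 had 3.51 in KO and 0.00 in WT. Tmem266 was lower in EBs of both genotypes, at -3.06 in KO and -1.60 in WT, and Islr2 was higher in EBs of both, at 2.18 in KO and 0.93 in WT. For Cadps2 the values were 0.39 in KO and 0.28 in WT.

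Across the 10 libraries, Pearson correlations between the genes higher in KO ESCs ran from 0.596, for Tmem266 and Parm1, to 0.967, for Epdr1 and Cadps2. Those between the lower genes ran from 0.748, for Crtac1 and Platr3, to 0.961, for Crtac1 and Ndrg2. These describe libraries that share genotype, cell type and depth, and the genes were chosen for their ESC differences. Outside the 10, the tested gene most like each by correlation over the 10 libraries was Mael for Ndrg2 (r = 0.987), Mybpc2 for Crtac1 (0.986), Ints11 for Platr3 (0.972) and Zfp346 for Islr2 (0.964). For the higher genes it was Gm7061 for Cadps2 (0.98), Zfp282 for Epdr1 (0.988), Polr1b for Tmem266 (0.985), Eda for Parm1 (0.979), B4gat1 for Plcl2 (0.983) and Zbtb39 for Tshz1 (0.981). Mael, a piRNA pathway factor, had an ESC difference near that of Ndrg2, at -3.56, and -0.63 in EBs (adjusted p = 0.697 in limma). The others had ESC differences of smaller size, such as 1.57 for Eda and -1.12 for Ints11.

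Of 9 close relatives of these genes, 5 passed the expression filter and 0 rose or fell in either cell type in the limma fit. Ndrg1, a stress-responsive paralogue of Ndrg2, had 241.1, 264.3 and 105.5 normalized counts in KO ESCs, against 166.7, 139.7 and 322.8 in WT ESCs, with overlap. It had 110.2 and 101 in KO EBs, against 530.2 and 487.2 in WT EBs, a difference of -2.26 (SE 0.52, adjusted p = 0.083, with block 0.0565). Ndrg3 and Ndrg4 had ESC differences of -0.54 and -0.90 (adjusted p = 0.804 and 0.104, and 0.0485 and 0.0282 with the block). Tshz3, a teashirt paralogue of Tshz1, had 1.55 in ESCs (adjusted p = 0.315). Hvcn1, the proton channel whose voltage sensor is related to that of Tmem266, had 0.21 in ESCs and 0.50 in EBs (adjusted p = 0.683 and 0.37). The list's median was -0.05 in ESCs and -0.26 in EBs, against -0.02 and -0.02 for all tested genes. In ESCs, 2.38% of all tested genes were called, 1.31% higher and 1.07% lower in KO, and 29.3% with the block.

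Of 27 other Platr noncoding RNAs, 21 were tested. In ESCs 1 fell and 0 rose, and in EBs 1 rose and 0 fell, where 2.38% and 1.84% of all tested genes were called. With the block 2 rose and 2 fell in ESCs, and 3 rose and 0 fell in EBs, where 29.3% and 22.7% were. Platr7 fell to 9.79, 14.5 and 13.9 normalized counts in KO ESCs, against 62.2, 67.2 and 59.3 in WT ESCs (difference -2.23, SE 0.28, adjusted p = 0.0202), and had 80.5 and 90 in KO EBs, against 83.5 and 101.6 in WT EBs. Platr5 rose to 66.4 and 72.2 in KO EBs, against 12.3 and 6.03 in WT EBs (difference 2.86, SE 0.55, adjusted p = 0.0496). Platr14, the most abundant that did not pass, had a mean of 216 in KO ESCs and 690 in WT ESCs (adjusted p = 0.365). Replicates A, B and C had 129, 145.3 and 372.2 in KO ESCs, against 830.5, 1073 and 164.7 in WT ESCs. KO was therefore below WT in pairs A and B and above it in C. Without replicate C, 4 of the 21 rose and 9 fell in ESCs, where 8715 of 15781 genes were called. In EBs 7 rose and 3 fell, where 8196 were. The median difference of the 21 was -0.43 in ESCs and -0.10 in EBs, against -0.02 and -0.02 for all tested genes. Platr3 had -5.09 and -2.77, but was chosen by its ESC value.

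The pathway lists of Cadps2, Plcl2 and Islr2 are read against the 2.38% of all tested genes called in ESCs and 1.84% in EBs, and the 29.3% and 22.7% called with the block. Of 18 vesicle priming and SNARE genes around Cadps2, 13 were tested and 0 rose or fell in either cell type, while the block called 1 up and 1 down in ESCs and 0 up and 1 down in EBs. Their medians were -0.47 in ESCs and -0.14 in EBs, and the most abundant, Unc13b, a vesicle priming factor, had 0.31 and 0.61 (adjusted p = 0.979 and 0.998 in limma). Of 17 phospholipase C and IP3 receptor genes around Plcl2, 14 were tested and 0 rose or fell in either cell type, while the block called 1 up and 4 down in ESCs and 2 up and 1 down in EBs. Their medians were 0.05 in ESCs and 0.28 in EBs, and the most abundant, Plcg1, a phospholipase C below receptor kinases, had -0.03 and -0.08 (adjusted p = 0.999 and 1 in limma).

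Of 13 axon guidance and neurotrophin receptor genes around Islr2, 10 were tested. In ESCs 1 rose and 0 fell, and in EBs 0 rose or fell, while the block called 4 up and 2 down in ESCs and 2 up and 1 down in EBs. Their medians were -0.10 in ESCs and -0.18 in EBs. Robo2, a receptor for Slit ligands, rose to 39.7, 43.6 and 8.33 normalized counts in KO ESCs, against 1.43, 1.53 and 0 in WT ESCs, which are 4 reads in all (difference 3.81, SE 0.75, adjusted p = 0.0485). It had 2.12 and 1.70 in KO EBs, against 29.1 and 43.0 in WT EBs (difference -3.65, adjusted p = 0.104, with block 0.0081). The difference between its EB and ESC effects was -7.46 (adjusted p = 0.0526 in limma). Ngfr, the most abundant that did not pass, had 101.8, 89.9 and 872.1 normalized counts in KO ESCs, against 218.9, 177.8 and 408.5 in WT ESCs, so KO was below WT in pairs A and B and above it in C. Its log2 differences were -0.33 in ESCs and 0.04 in EBs (adjusted p = 0.973 and 1 in limma).

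The nearest tested genes on either side of the 10 lay 0.069 to 1006 kb away. Of these 20 neighbours, 11 had the sign of their neighbour in ESCs. Of all tested genes, 7663 were higher and 8116 lower in KO ESCs. A near-even split of signs is thus likely in advance, and nothing is read from this count. An ESC difference of 1 or more in either direction was seen in 3 neighbours, where 16% of all tested genes had one. Zadh2, 0.357 kb from Tshz1, rose in KO ESCs to a mean of 64.4 normalized counts, against 14.2 in WT ESCs (difference 2.12, adjusted p = 0.0405 in limma), and in EBs had 32.7 in KO and 20.3 in WT (0.65, adjusted p = 0.69). Dazl, a germ cell RNA-binding protein 215.8 kb from Plcl2, fell in KO ESCs (difference -2.55, adjusted p = 0.0193) and in KO EBs (-2.27, adjusted p = 0.0345), opposite to Plcl2. Plcb4, 6.95 kb from Platr3, had -1.05 in ESCs (adjusted p = 0.352). The other 17 neighbours had ESC differences under 1 in size. Leaving out any 1 of the ESC replicate A and B libraries or of the EB libraries, limma called 0 genes in ESCs, with 1943 to 2211 at an unadjusted p under 0.05, and leaving out any 1 EB library it called 0 in EBs. The calls of Platr7, Platr5, Robo2, Zadh2 and Dazl were therefore lost in those fits.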

How the data were processed

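RNA-seq of 10 libraries was analysed, with 3 KO ESC, 3 WT ESC, 2 KO EB and 2 WT EB libraries, grouped by the labels. A WT embryonic fibroblast sample is not analysed here. The table's values are normalized signal: the authors deposited reads per gene after division by DESeq's scaling factor for each library. Tools named in the submitters' processing notes are TopHat2 2.0.10, Bowtie, HTSeq 0.6.0, CASAVA 1.8.2 and DESeq, with mm10 as the build. The annotation release, the strand setting and filters are not given in the sources used here. Each value was a whole multiple of its library's smallest value within a tolerance of 0.01 (100% of values), so whole reads were recovered. HTSeq's 5 summary lines stayed out of all sums and tests. Symbols for 37607 of 39179 identifiers, coordinates and transcripts come from the GENCODE annotation of GRCm38, and start-site windows from RefSeq.

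Log2 of the value plus 1 was fitted with limma 3.58.1 (R 4.3.3) as 4 group means with trended, robust variances, over 15781 genes with a mean of 10 or more. Tests were two-sided, with Benjamini-Hochberg adjustment over those genes and a threshold of 0.05. P-values measure the spread between libraries as labelled. With 2 libraries an EB group takes its spread from the pooled fit. Ratios of read counts in a pair carry exact binomial 95% intervals, which cover counting error only. The 10 genes and all gene lists were chosen with earlier results of these data known. Named genes were the 10, their tested relatives, up to 2 called genes per list, direction and contrast, each list's most abundant gene not called, the nearest tested gene on either side and the most correlated gene.

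Letters are shared by KO and WT. Deviations from the group mean of same-lettered KO and WT ESC libraries had r = 0.845, 0.828 and 0.858 across genes. Between A and B r was also 0.809 and 0.812, and between C and either -0.836 to -0.846. This shows a shift of replicate C shared by KO and WT, and cannot tell whether A pairs with A or with B. For the 2 EB pairs r was 0.369, and pairing there was not decided, though the block also covers the EB letters. The fits were also run on simulated data. With replicate C shifted as observed there, limma without the block and edgeR missed the EB changes put in. On the measured data those fits called 290 and 281 genes in EBs, so the simulation did not match the data in this respect. No conclusion is drawn from it. Given the SE with and without replicate C, a lack of calls in those fits still does not show a lack of EB changes. Alternatives were edgeR 4.0.16 and DESeq2 1.42.0 on recovered reads, TMM scaling, pseudocounts of 0.5 and 10, no filter, a mean of 50 or more, the block and other sets of libraries.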

Additional observations from a re-analysis of the deposited data

Results flagged for a closer look

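Parm1 lay on opposite sides of WT in the 2 cell types. All 3 KO ESC libraries were above the WT ESC libraries, and both KO EB libraries were below the WT EB libraries. Its EB difference of -0.64 passed 0.05 only in the 2 limma fits without any ESC replicate C library (adjusted p = 0.0372 and 0.0187), and had adjusted p = 0.886 over all libraries and 0.372 with the block. Its EB difference minus its ESC difference was -5.22 on the log2 scale. For Crtac1, KO libraries were below WT in ESCs and above it in EBs, but its EB difference of 0.30 (SE 0.77) passed in none of the fits run, with limma, edgeR and DESeq2 adjusted p of 0.104 to 1. Its EB difference minus its ESC difference was 3.51. Neither difference between cell types was tested, because the ESC libraries chose the genes.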

How the results depend on the processing

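The count of the 10 genes called in EBs was 0 over all 10 libraries and stayed 0 with TMM scaling, edgeR, pseudocounts of 0.5 and 10 and a mean of 50 or more, where Platr3 was not tested. It was 1 with no filter, 5 with DESeq2, 5 with the replicate block, 8 without both ESC replicate C libraries and 8 with the EB libraries alone. Leaving out 1 library at a time gave 0 to 3. Genes called in EBs numbered 290 over all libraries, 448 with a pseudocount of 10, 1351 with no filter, 1550 with DESeq2, 3578 with the block, 8196 without both C libraries and 7768 with the EB libraries alone, and 0 to 1162 leaving out 1 library at a time. It was 0 in limma without any 1 EB library, where 1150 to 1178 genes had an unadjusted p under 0.05. In ESCs the count was 376 over all libraries, 45 with no filter, 1959 with DESeq2, 4627 with the block, 8715 without both C libraries and 0 with limma on the ESC libraries alone, where 1603 genes had an unadjusted p under 0.05. It ran from 0 to 2177 leaving out 1 library at a time. The SE of the 10 EB differences is given with and without replicate C beside the calls.

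Of 199 EB differences of the 10 genes under the alternatives, 167 kept their direction and side of the threshold, 31 kept their direction and passed it, and 1 changed sign. That was Ndrg2, at -0.00881 without replicate A of WT EBs, and its range leaving out 1 library at a time was -0.00881 to 0.0386. Of 199 ESC differences, 194 moved by less than the spread between replicates, and none of the other 5 changed direction. Leaving out KO or WT ESC replicate C is named beside the calls it changed. Low levels limit Platr3 in KO ESCs, Parm1 and Tshz1 in WT ESCs, and Cadps2 and Tmem266 in WT cells, where a library held few reads. Islr2 and Ndrg2 had 5 and 9 reads in replicate C of KO ESCs. With a pseudocount of 10, ESC differences went from 4.58 to 3.66 for Parm1 and from 3.06 to 2.44 for Tshz1. For Ndrg2 they went from -3.64 to -3.06 and for Platr3 from -5.09 to -3.17.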
